A study of Mus musculus with 9 samples.

Results

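A set of 10 genes that set whether a lymphocyte leaves the G1 phase of the cell cycle were followed in mouse natural killer (NK) cells: the D cyclins Ccnd1, Ccnd2 and Ccnd3, the kinases Cdk4 and Cdk6, the CDK inhibitors Cdkn1a, Cdkn1b, Cdkn2c and Cdkn2d, and the retinoblastoma gene Rb1. They were chosen by name, and every probe set annotated to 1 of these 10 symbols alone was taken, which gave 10 of the 18193 genes that the annotation names and 27 of the 45101 probe sets on the array. Of the 27, 24 were bright enough to be tested, at least 1 for each of the 10 genes. RNA came from sorted NK cells and was hybridised to 9 Affymetrix arrays, 3 for each of 3 groups: NK cells from bone marrow of NKDxIL15tg mice, NK cells from spleen of NKDxIL15tg mice, and NK cells from spleen of IL15tg mice. All 3 groups carry the IL15tg transgene, which supplies interleukin-15, a survival and growth factor of NK cells, so no group without extra interleukin-15 was measured. NKD is a transgenic line short of mature NK cells, and the series' design text calls the NKDxIL15tg cells immature and the IL15tg cells mature. The NKD genotype and immaturity go together in this design and cannot be told apart, and bone marrow NKDxIL15tg cells differ from IL15tg spleen cells in organ as well. Mouse age, sort gate, purity and the number of animals behind an array are not given in the sources used here.

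As background, D cyclins are made in response to growth signals and bind CDK4 or CDK6. The kinase then phosphorylates the retinoblastoma protein, which releases E2F transcription factors to switch on the genes of DNA replication. Inhibitors of the INK4 family, p18 (Cdkn2c) and p19 (Cdkn2d), bind CDK4 and CDK6 alone and keep cyclin D off, whereas p21 (Cdkn1a) and p27 (Cdkn1b) act on a wider range of cyclin and CDK complexes. In lymphocytes CDK6 and cyclins D2 and D3 are the forms best known for early proliferation, and resting mature lymphocytes hold much p27.

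Array medians lay between 56.6 and 59.05 intensity units in 8 arrays and at 64.87 in NKDxIL15tg bone marrow replicate 3. That array stood apart: 2080 tested probe sets (7.7%) were over 2-fold brighter there than in each of the remaining 8 arrays, and no other array had more than 6 such probe sets. Results that rest on it are given with and without it. NK markers were bright in every group, with a summed intensity of 14 genes of 30770 to 34030 in NKDxIL15tg bone marrow, 35270 to 37190 in NKDxIL15tg spleen and 51130 to 52960 in IL15tg spleen, and none of them lay under the floor of 16. The summed intensity of 15 granulocyte and monocyte markers was 12320 to 32380 in NKDxIL15tg bone marrow, 3652 to 8314 in NKDxIL15tg spleen and 1460 to 1812 in IL15tg spleen, so it moved with the groups. The sum of 13 erythroid markers was 6102 to 8063, 8101 to 8796 and 2072 to 2234 in the same order, and without Car2, an enzyme gene not limited to red cells, it was 1220 to 1600, 1089 to 1646 and 715.4 to 761.5. The sum of 13 B cell markers was 1025 to 2767, 1149 to 1184 and 1376 to 2161, and that of 12 T cell markers 2859 to 3708, 3021 to 3491 and 1599 to 1713. Bone marrow replicate 3 gave the highest bone marrow value of each of these marker sums. Bone marrow replicates 1 and 2 read 12320 and 19560 for granulocyte and monocyte markers. For B cell markers they read 1025 and 1246, below the range of IL15tg spleen. The log2 ratio of 3' to 5' Gapdh control probe sets, a sign of RNA length, was 1.87 to 2.33 in NKDxIL15tg bone marrow, 1.62 to 1.87 in NKDxIL15tg spleen and 1.99 to 3.21 in IL15tg spleen. In such bulk samples fewer cells with an RNA and less RNA per cell cannot be told apart.

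Promoter sequence is shown for Cdk4, Cdk6 and Cdkn2c, the 3 genes called in both comparisons with IL15tg spleen, with the E-box CACGTG marked, the known binding sequence of MYC and its partner MAX. RefSeq windows on GRCm38.p6 run from 250 bases before to 50 after a transcript start. They were at hand for 7 of the 10 genes, in 10 windows. Capitals mark CACGTG, which reads the same on both strands.
Cdk4, chr10:127063285-127063584, plus strand: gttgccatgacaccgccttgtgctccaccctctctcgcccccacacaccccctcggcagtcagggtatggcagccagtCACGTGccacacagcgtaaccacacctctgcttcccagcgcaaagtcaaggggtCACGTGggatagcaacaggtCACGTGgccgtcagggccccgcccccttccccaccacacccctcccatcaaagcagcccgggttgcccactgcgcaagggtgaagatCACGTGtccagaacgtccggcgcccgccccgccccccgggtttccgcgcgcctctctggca
Cdk6, chr5:3343643-3343942, plus strand: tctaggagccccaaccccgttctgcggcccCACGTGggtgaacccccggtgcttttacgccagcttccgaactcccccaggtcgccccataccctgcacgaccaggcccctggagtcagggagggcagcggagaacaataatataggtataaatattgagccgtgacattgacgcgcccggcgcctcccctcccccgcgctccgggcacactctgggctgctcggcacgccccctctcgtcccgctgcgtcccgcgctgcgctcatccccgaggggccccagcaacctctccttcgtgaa
Cdkn2c, first window, chr4:109666707-109667006, minus strand: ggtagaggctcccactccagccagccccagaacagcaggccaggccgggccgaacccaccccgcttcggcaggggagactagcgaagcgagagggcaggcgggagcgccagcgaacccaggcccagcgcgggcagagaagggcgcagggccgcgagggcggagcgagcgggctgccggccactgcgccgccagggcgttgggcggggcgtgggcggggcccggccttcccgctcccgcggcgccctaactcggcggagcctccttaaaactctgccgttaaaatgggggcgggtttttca
Cdkn2c, second window, chr4:109665323-109665622, minus strand: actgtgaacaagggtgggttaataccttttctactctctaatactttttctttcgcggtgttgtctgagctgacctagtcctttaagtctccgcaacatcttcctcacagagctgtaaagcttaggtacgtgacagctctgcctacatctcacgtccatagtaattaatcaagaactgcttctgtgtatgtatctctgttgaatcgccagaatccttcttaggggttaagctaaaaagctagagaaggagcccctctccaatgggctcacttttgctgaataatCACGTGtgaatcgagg
The Cdk4 window held 4 matches, at -172, -118, -98 and -11 from the start. Of all 32851 RefSeq windows, 7.15% held at least 1 CACGTG and 8 windows (0.0244%) held 4 or more, the count of the Cdk4 window itself. The Cdk6 window held 1 match at -220, the first Cdkn2c window none and the second 1 at 35. The other 6 windows, of Ccnd3, Cdkn1a, Cdkn1b and Cdkn2d, held none. Searched on both strands, the GC box GGGCGG was in 7 of the 10 windows and in 35.7% of all windows. G and C made up 67% of the Cdk4 window, 66.7% of that of Cdk6, and 73.3% and 44% of the Cdkn2c windows. The median of all windows was 52.67%, and the shares of all windows were not matched for this. The E2F motif, taken as TTTCCCGC, TTTCGCGC, TTTGCCGC or TTTGGCGC, was in 0 of the 10 windows and in 2.26% of all. The cyclic AMP element TGACGTCA was in 0 of 10 and in 1.79% of all, and the STAT motif TTCNNNGAA in 0 of 10 and in 8.3% of all. These matches describe letters in the windows and do not show binding.

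The comparison of spleen NK cells from NKDxIL15tg and IL15tg mice asks how immature cells differ from mature ones within an organ. Cdkn2c, Cdk6 and Cdk4 RNA was higher in NKDxIL15tg spleen, by 3.97-fold, 3.31-fold and 1.70-fold for the brightest probe set of each gene. The other 7 genes were not called by their brightest probe set, and none of the 10 was called lower by it. In bone marrow NK cells of NKDxIL15tg mice the same comparison against IL15tg spleen gave 4.97-fold for Cdkn2c, 3.63-fold for Cdk6 and 2.37-fold for Cdk4, and Cdkn1a was also higher, by 1.68-fold. Both comparisons use the same 3 IL15tg arrays, so they are not independent of each other.

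A probe set was called where its adjusted p in limma was under 0.05. In NKDxIL15tg spleen against IL15tg spleen, 6 of the 24 probe sets (25%) were called, where 13.8% of all 27022 tested probe sets were. Of these, 5 were higher, against 6.75% of all probe sets, and 1 was lower, against 7.04%. By the brightest probe set, 3 of 10 genes were higher and 0 lower, where 7.65% of 12925 genes were higher and 4.87% lower. The median log2 change of the 24 probe sets was 0.07, beside -0.00 for all probe sets. In NKDxIL15tg bone marrow against IL15tg spleen, 7 of 24 (29.2%) were called, beside 21.3% of all. All 7 were higher, where 9.79% of all were higher, and 0 were lower, where 11.5% were lower. By gene, 4 of 10 were higher and 0 lower, where 11.5% of genes were higher and 8.7% lower. Here the median log2 change was 0.09, beside 0.08 for all probe sets. Probe sets of 1 gene read the same transcripts and are not independent, and 7 of the 24 belong to Ccnd2. With 1 probe set a gene, the brightest, the median log2 change of the 10 genes was 0.29 in spleen, beside 0.02 for all genes, and 0.09 in bone marrow against IL15tg spleen, beside 0.12.

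**Figure D1:**
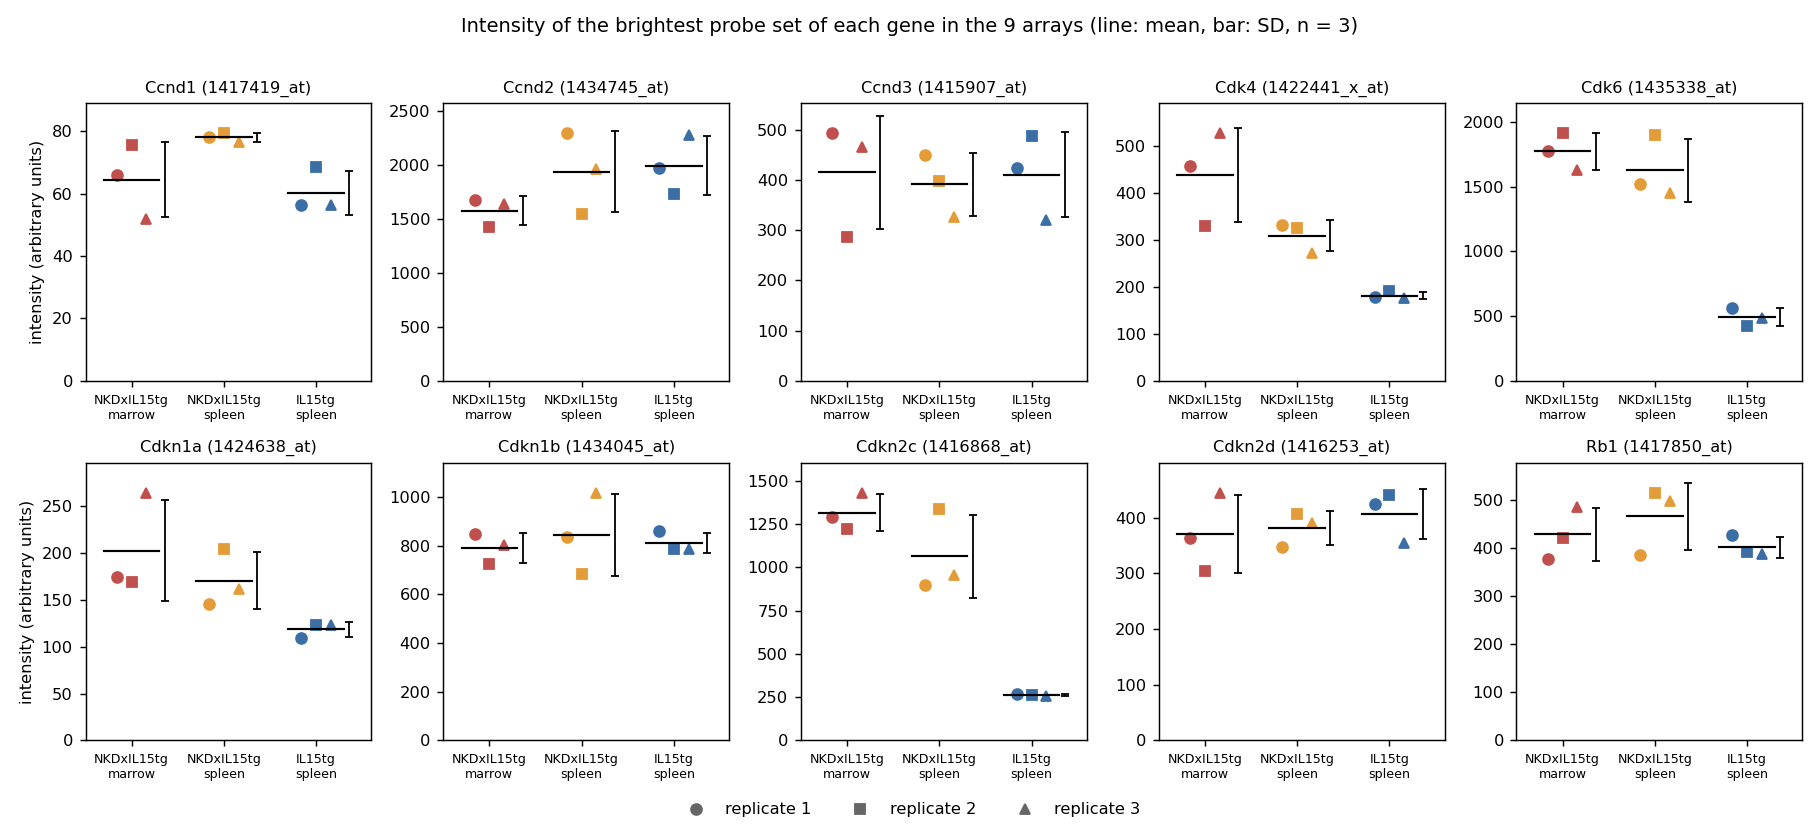
Linear intensity (arbitrary units, axes from 0) of the brightest probe set of each of the 10 genes in NKDxIL15tg bone marrow, NKDxIL15tg spleen and IL15tg spleen NK cells; points are arrays, marker shape is the replicate number, lines are means and bars SD of 3 arrays. For Cdk4, Cdk6, Cdkn1a and Cdkn2c all 6 NKDxIL15tg arrays lie above all 3 IL15tg arrays, while for Ccnd2, Ccnd3, Cdkn1b, Cdkn2d and Rb1 the spleen groups overlap. Axes differ between panels, and levels of different probe sets are not comparable.

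The D cyclins are the growth-responsive subunits of the pathway. Ccnd2 (cyclin D2, chr6:127125162-127152188) had 7 probe sets, all tested and none called in any comparison. Its brightest, 1434745_at, read 1672, 1421 and 1637 in NKDxIL15tg bone marrow, 2294, 1549 and 1964 in NKDxIL15tg spleen, and 1967, 1730 and 2279 in IL15tg spleen. The spleen groups overlapped, and the 3 bone marrow arrays lay below all 3 IL15tg arrays. The log2 change was -0.05 in NKDxIL15tg against IL15tg spleen (95% interval -0.43 to 0.33, adjusted p = 0.912) and -0.33 in NKDxIL15tg bone marrow against IL15tg spleen (-0.71 to 0.04, adjusted p = 0.185). Over the 7 probe sets the log2 changes ran between -0.29 and 0.47 in the first comparison and between -0.33 and 0.17 in the second. The dimmest, 1416124_at, gave the value of 0.47 ± 0.20 (SE, adjusted p = 0.172), with 129, 124 and 117 in NKDxIL15tg spleen against 113, 78.8 and 79.5 in IL15tg spleen, groups that did not overlap.

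Ccnd3 (cyclin D3, chr17:47505051-47599689) had 3 probe sets that disagreed with each other. Probe set 1415907_at read 493, 286 and 465 in NKDxIL15tg bone marrow, 451, 398 and 326 in NKDxIL15tg spleen, and 424, 488 and 321 in IL15tg spleen, with a log2 change of -0.06 in spleen (95% interval -0.60 to 0.48, adjusted p = 0.930). Probe set 1438805_at read 179, 247 and 395 in NKDxIL15tg bone marrow, 285, 192 and 392 in NKDxIL15tg spleen, and 545, 516 and 432 in IL15tg spleen. For it all 6 NKDxIL15tg arrays lay below all 3 IL15tg arrays, yet the spread was wide. Its log2 changes of -0.83 ± 0.32 in spleen (adjusted p = 0.122) and -0.93 ± 0.32 in bone marrow against IL15tg spleen (adjusted p = 0.0666) did not pass the threshold. Without bone marrow replicate 3 both did, at -0.83 (adjusted p = 0.0353) and -1.24 (adjusted p = 0.00937). The dim probe set 1444323_at was the only one of the 24 called lower in spleen, at 70.4, 76.8 and 72.4 in NKDxIL15tg spleen against 106, 113 and 88.1 in IL15tg spleen, without overlap. This log2 change of -0.48 ± 0.12 (adjusted p = 0.0282) lost its call when any of 5 spleen arrays was left out, with adjusted p = 0.105 and 0.111 without IL15tg spleen replicates 1 and 2, and 0.0802, 0.0596 and 0.0678 without NKDxIL15tg spleen replicates 1, 2 and 3. It also lost its call under quantile normalisation (adjusted p = 0.0652) and a common 75th percentile (adjusted p = 0.107).

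Ccnd1 (cyclin D1, chr7:144929931-144939831), the form most used outside the blood lineages, was dim, and 1 of its 3 probe sets, 1417420_at, was too dim to test, at 33.7 to 37.6 in NKDxIL15tg bone marrow, 35.5 to 39.95 in NKDxIL15tg spleen and 32.6 to 41.4 in IL15tg spleen. Probe set 1417419_at read 66.2, 75.5 and 51.8 in NKDxIL15tg bone marrow, 78.4, 79.4 and 76.6 in NKDxIL15tg spleen, and 56.3, 68.5 and 56.2 in IL15tg spleen. The 3 NKDxIL15tg spleen arrays were the highest of the 9 and very alike, with a log2 change of 0.38 ± 0.15 (adjusted p = 0.138) that passed without bone marrow replicate 3 (adjusted p = 0.0427) and with a floor of 64 (adjusted p = 0.0483). The other tested probe set of Ccnd1, 1448698_at, had a log2 change of 0.08 (95% interval -0.23 to 0.39).

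Both kinase genes were higher in both NKDxIL15tg groups. Cdk6 (chr5:3341004-3531008), which pairs with D cyclins early in lymphocyte proliferation, read 1776, 1913 and 1630 in NKDxIL15tg bone marrow, 1523, 1902 and 1453 in NKDxIL15tg spleen, and 563, 424 and 486 in IL15tg spleen with 1435338_at. Every NKDxIL15tg array lay more than 2-fold above every IL15tg array. The means were 1773 ± 141, 1626 ± 242 and 490.8 ± 69.6 (SD, n = 3 each) in that order. Log2 changes against IL15tg spleen were 1.73 ± 0.15 in NKDxIL15tg spleen (SE, adjusted p = 0.000154) and 1.86 ± 0.15 in NKDxIL15tg bone marrow (adjusted p = 8.31e-05). The second probe set, 1455287_at, read 1197, 1362 and 1151 in NKDxIL15tg bone marrow, 1098, 1528 and 1048 in NKDxIL15tg spleen, and 390, 332 and 355 in IL15tg spleen. It gave nearly the same log2 changes, 1.75 ± 0.16 (adjusted p = 0.000202) and 1.78 ± 0.16 (adjusted p = 0.00015). The third, 1460291_at, was too dim for the filter, at 42.9, 46.7 and 54.9 in NKDxIL15tg bone marrow, 35.3, 50.6 and 36.1 in NKDxIL15tg spleen, and 32.9, 28.1 and 33.0 in IL15tg spleen. It lay in the same order, and with no filter its log2 changes were 0.36 ± 0.16 (adjusted p = 0.248) and 0.62 ± 0.16 (adjusted p = 0.0479).

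Cdk4 (chr10:127063535-127067288), the other partner kinase of the D cyclins, read 458, 330 and 528 in NKDxIL15tg bone marrow, 332, 325 and 272 in NKDxIL15tg spleen, and 178, 191 and 176 in IL15tg spleen with its brightest probe set, 1422441_x_at. Both NKDxIL15tg groups lay wholly above IL15tg spleen, and bone marrow and spleen of NKDxIL15tg mice overlapped only through bone marrow replicate 2. Log2 changes against IL15tg spleen were 0.76 ± 0.17 in NKDxIL15tg spleen (adjusted p = 0.0202) and 1.25 ± 0.17 in NKDxIL15tg bone marrow (adjusted p = 0.00143). Probe set 1422439_a_at, with means of 325.6 ± 66.6, 243.3 ± 24.2 and 134.5 ± 7.77 (SD, n = 3 each) in NKDxIL15tg bone marrow, NKDxIL15tg spleen and IL15tg spleen, gave 0.85 ± 0.16 (adjusted p = 0.00973) and 1.25 ± 0.16 (adjusted p = 0.00101). Probe set 1422440_at read 201, 148 and 282 in NKDxIL15tg bone marrow, 151, 164 and 124 in NKDxIL15tg spleen, and 97.9, 98.3 and 93.5 in IL15tg spleen. Its bone marrow change of 1.07 ± 0.21 passed (adjusted p = 0.00833), and its spleen change of 0.59 ± 0.21 did not (adjusted p = 0.106), though the spleen groups did not overlap. It passed in spleen without bone marrow replicate 3 (adjusted p = 0.0184) or replicate 2 (adjusted p = 0.0456). The spleen call of 1422441_x_at was lost without any 1 of the 3 IL15tg spleen arrays (adjusted p = 0.0740, 0.0589 and 0.0712 without replicates 1, 2 and 3) and without NKDxIL15tg spleen replicate 1 or 2 (adjusted p = 0.0641 and 0.0724). That of 1422439_a_at held in all 16 alternatives, as did all 3 calls in bone marrow against IL15tg spleen. Bone marrow replicate 3 was the highest of the 9 arrays for each Cdk4 probe set, and without it the 3 bone marrow log2 changes were 1.10, 1.14 and 0.84 (adjusted p = 0.0012, 0.000964 and 0.00547).

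**Figure D2:**
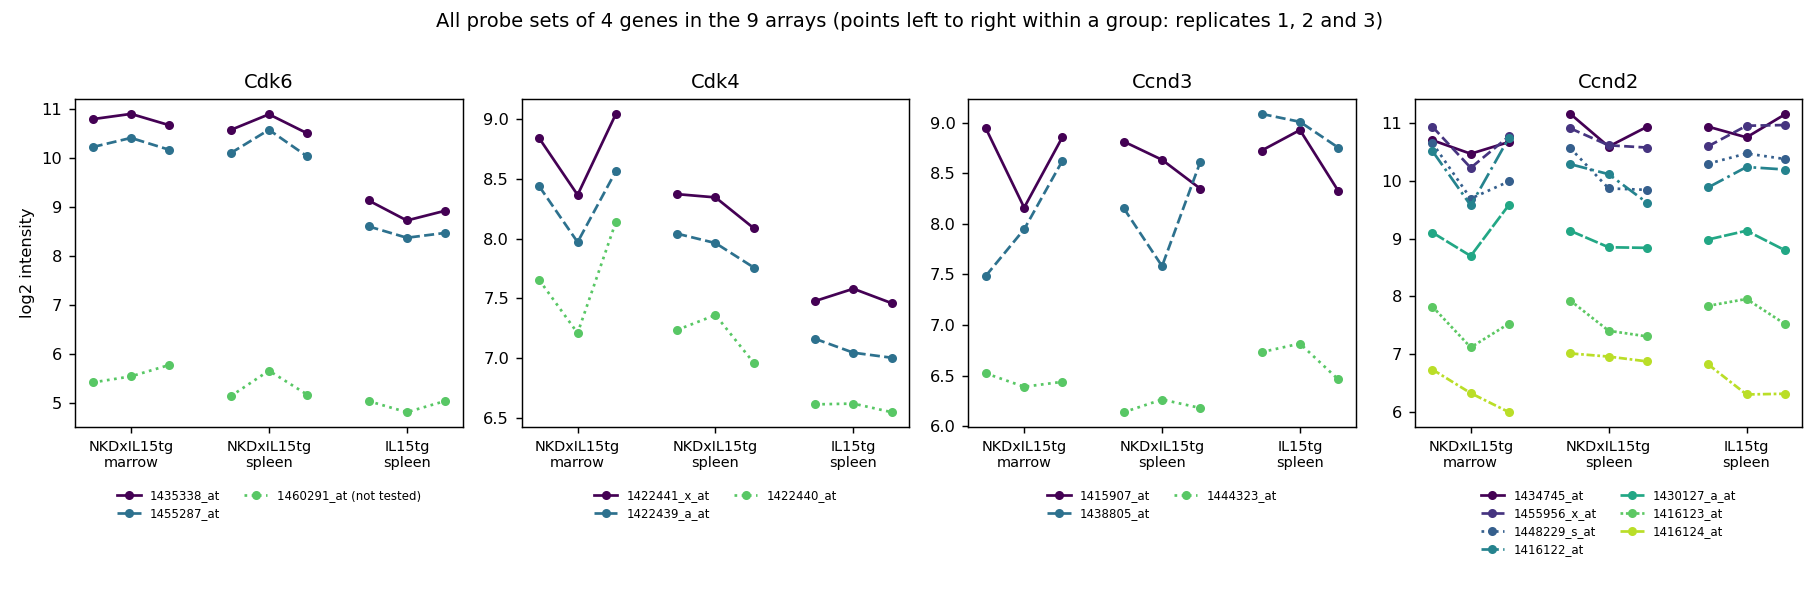
Log2 intensity of all probe sets of Cdk6, Cdk4, Ccnd3 and Ccnd2 in each of the 9 arrays, with the 3 arrays of a group joined by a line; the join has no meaning as an order. The 3 Cdk6 and the 3 Cdk4 probe sets run together across groups, and the 3 Ccnd3 probe sets do not. The 7 Ccnd2 probe sets show no shared step between the groups. The dimmest of them, 1416124_at, lies higher in all 3 NKDxIL15tg spleen arrays than in the other groups, without a call.

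Among the inhibitors, Cdkn2c (chr4:109660876-109666756), which encodes the CDK4 and CDK6 inhibitor p18INK4c, had the largest change of the 10 genes in both comparisons with IL15tg spleen. Its single probe set, 1416868_at, read 1289, 1223 and 1432 in NKDxIL15tg bone marrow, 901, 1338 and 955 in NKDxIL15tg spleen, and 270, 265 and 257 in IL15tg spleen. The IL15tg arrays were nearly equal to each other, and every NKDxIL15tg array exceeded them more than 3-fold. The means were 1315 ± 107, 1064 ± 238 and 264.1 ± 6.46 (SD, n = 3 each). Log2 changes against IL15tg spleen were 1.99 ± 0.15 in NKDxIL15tg spleen (adjusted p = 8.09e-05) and 2.31 ± 0.15 in NKDxIL15tg bone marrow (adjusted p = 2.77e-05). Cdkn2d (chr9:21288459-21291421), the other INK4 inhibitor of the set, read 364, 305 and 445 in NKDxIL15tg bone marrow, 346, 406 and 390 in NKDxIL15tg spleen, and 424, 440 and 355 in IL15tg spleen. The 3 groups overlapped, and its log2 changes were -0.09 in spleen (95% interval -0.44 to 0.26, adjusted p = 0.803) and -0.14 in bone marrow against IL15tg spleen (-0.50 to 0.21, adjusted p = 0.525). In each comparison the intervals of the 2 INK4 genes did not overlap, with that of Cdkn2c at 1.64 to 2.34 in spleen and 1.97 to 2.66 in bone marrow; the difference between the genes was not tested.

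Cdkn1a (chr17:29090979-29100722), which encodes p21, read 174, 169 and 264 in NKDxIL15tg bone marrow, 146, 204 and 162 in NKDxIL15tg spleen, and 109, 123 and 123 in IL15tg spleen with 1424638_at. No NKDxIL15tg array fell within the IL15tg range. The log2 change of 0.74 ± 0.19 in bone marrow against IL15tg spleen passed (adjusted p = 0.0257), and that of 0.51 ± 0.19 in NKDxIL15tg against IL15tg spleen did not (adjusted p = 0.119). Without bone marrow replicate 3, which was the highest array, the values were 0.54 (adjusted p = 0.0293) and 0.51 (adjusted p = 0.0248), so both passed. The bone marrow call was lost without any 1 of the IL15tg spleen arrays (adjusted p = 0.0959, 0.0667 and 0.0625 without replicates 1, 2 and 3). The dimmer probe set 1421679_a_at read 59.1, 75.8 and 65.1 in NKDxIL15tg bone marrow, 55.7, 80.0 and 58.5 in NKDxIL15tg spleen, and 45.9, 52.3 and 51.6 in IL15tg spleen, with log2 changes of 0.41 ± 0.16 (adjusted p = 0.0996) and 0.36 ± 0.16 (adjusted p = 0.185) in bone marrow and spleen. Cdkn1b (chr6:134920401-134925525), the p27 gene, read 847, 723 and 802 in NKDxIL15tg bone marrow, 835, 682 and 1018 in NKDxIL15tg spleen, and 860, 788 and 788 in IL15tg spleen with 1434045_at. These groups overlapped, and the log2 changes were 0.04 in spleen (95% interval -0.30 to 0.38, adjusted p = 0.928) and -0.04 in bone marrow against IL15tg spleen (-0.38 to 0.30, adjusted p = 0.860). Its dim probe set 1419497_at had 0.06 (-0.55 to 0.67) and 0.40 (-0.21 to 1.01).

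Rb1 (chr14:73192858-73325951), the substrate through which the kinases act, read 377, 422 and 487 in NKDxIL15tg bone marrow, 386, 515 and 498 in NKDxIL15tg spleen, and 428, 391 and 388 in IL15tg spleen with 1417850_at. The groups overlapped. The log2 change was 0.20 in spleen (95% interval -0.13 to 0.53, adjusted p = 0.430) and 0.09 in bone marrow against IL15tg spleen (-0.24 to 0.41, adjusted p = 0.687). Its other probe set, 1444400_at, was too dim to test, at 22.8 to 31.8 in NKDxIL15tg bone marrow, 26.7 to 36.5 in NKDxIL15tg spleen and 32.5 to 37.4 in IL15tg spleen. For Ccnd2, Cdkn1b, Cdkn2d and Rb1 the intervals of the brightest probe set leave room for changes of up to about 0.5 on the log2 scale in spleen, so that equal levels are not shown.

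**Figure D3:**
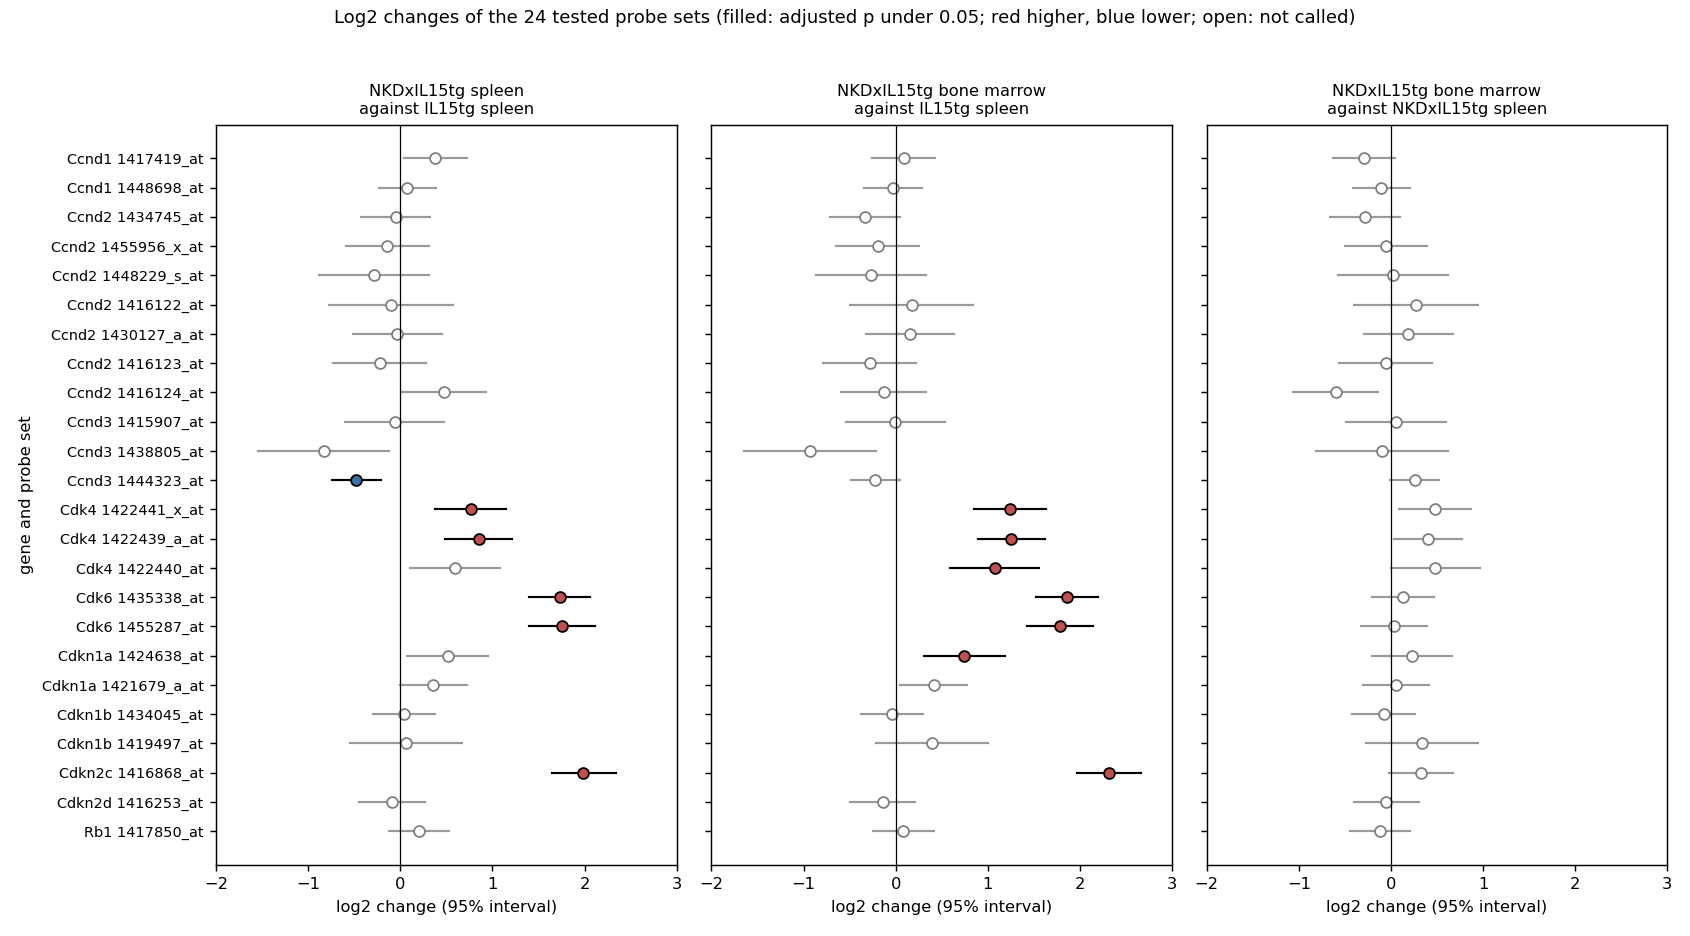
Log2 changes (points) with 95% intervals from limma (lines) of the 24 tested probe sets in 3 panels: NKDxIL15tg against IL15tg spleen (left), NKDxIL15tg bone marrow against IL15tg spleen (middle) and NKDxIL15tg bone marrow against spleen (right). Filled points have an adjusted p under 0.05. The filled points to the right belong to Cdk4, Cdk6 and Cdkn2c, with Cdkn1a in the second panel, the 1 filled point to the left is Ccnd3 1444323_at, and the third panel has no filled point.

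Bone marrow against spleen within NKDxIL15tg mice compares organs at 1 genotype. None of the 24 probe sets was called by limma (0 higher, 0 lower), where 0.0518% of all probe sets were called, 0.0111% higher and 0.0407% lower, 14 probe sets in all and 23 with the replicate number as a block. By gene the counts were 0 of 10, where 0.0232% of genes were higher and 0.0464% lower. At an unadjusted p under 0.05 the count was 3 of 24, beside 10.4% of all probe sets, and the lowest adjusted p was 0.442. Those 3 were Ccnd2 1416124_at, at -0.60 ± 0.20, and the Cdk4 probe sets 1422441_x_at, at 0.48, and 1422439_a_at, at 0.40. The third Cdk4 probe set was at 0.48 with an interval of -0.00 to 0.97. Without bone marrow replicate 3 the 3 Cdk4 values were 0.33, 0.28 and 0.25. For Cdk6 the log2 change was 0.13 (95% interval -0.20 to 0.47, adjusted p = 0.703) and for Cdkn2c 0.32 (-0.02 to 0.67, adjusted p = 0.479). For Cdkn1a it was 0.23 (-0.21 to 0.67). The bone marrow and spleen arrays of NKDxIL15tg mice overlapped for Cdk6, Cdkn2c and Cdkn1a.

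Within NKDxIL15tg spleen, replicate 2 was the highest array for both tested Cdk6 probe sets, for Cdkn2c and for both Cdkn1a probe sets, and it was the lowest for Cdkn1b 1434045_at. For Cdk6, bone marrow replicate 2 was likewise the highest of its group, and for Cdkn2c it was the lowest. Of the summed markers, spleen replicate 2 was the highest of its group for erythroid genes, at 8796 against 8210 and 8101 in replicates 1 and 3 (1646 against 1089 and 1323 without Car2), and for T cell genes, at 3491 against 3151 and 3021. It lay between the others for granulocyte and monocyte genes, at 4828 against 3652 and 8314, and for NK genes, at 35430 against 37190 and 35270, and was the lowest for B cell genes, at 1149 against 1175 and 1184. The part of these markers in the spread between arrays was not tested.

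The calls of Cdk6, Cdkn2c and Cdk4 stood beside marker sums that also moved between the groups. Beside the marker counts stand the shares of all genes, 7.65% higher and 4.87% lower in NKDxIL15tg spleen against IL15tg spleen. In NKDxIL15tg bone marrow they were 11.5% and 8.7% against IL15tg spleen, and 0.0232% and 0.0464% against NKDxIL15tg spleen. Granulocyte and monocyte markers were called higher for 6 of 14 tested genes in NKDxIL15tg spleen and 13 of 14 in bone marrow, each against IL15tg spleen, and for 3 of 14 in NKDxIL15tg bone marrow against NKDxIL15tg spleen. In the last comparison the summed level was at least 12320 in bone marrow and at most 8314 in spleen, and the 3 Cdk4 probe sets had log2 changes of 0.48, 0.40 and 0.48 there, Cdkn2c 0.32 and Cdk6 0.13, none of them called. Erythroid markers were higher for 4 and 6 of 11 genes against IL15tg spleen, in NKDxIL15tg spleen and bone marrow. The 4 in spleen were Car2, Alas2, Hemgn and Epor, at log2 changes of 2.32, 1.98, 1.93 and 0.65, and the other 7 tested lay between 0.08 and 1.15. In bone marrow Car2, Hemgn, Tfrc and Alas2 led, at 2.07, 1.97, 1.43 and 0.83. T cell markers were higher for 2 of 9 genes in each, Cd28 and Trat1, at log2 changes of 2.10 and 0.97 in NKDxIL15tg spleen and 1.88 and 1.46 in NKDxIL15tg bone marrow. B cell markers were lower for 3 of 9 genes in NKDxIL15tg spleen, and lower for 4 and higher for 1 of 9 in NKDxIL15tg bone marrow. NK markers were lower for 5 and 6 of 14 genes, Klrc1, Klrk1, Klrd1 and Klre1 among them. The 6 erythroid markers higher in bone marrow were 2 without IL15tg spleen replicate 1 or bone marrow replicate 2, and 3 without IL15tg spleen replicate 2 or 3. The 2 T cell markers higher in spleen were 1 without replicate 1 or 2 of IL15tg spleen or replicate 1 or 3 of NKDxIL15tg spleen, and the 1 higher B cell marker was lost without IL15tg spleen replicate 1 or 3. The 3 granulocyte and monocyte markers higher in NKDxIL15tg bone marrow against NKDxIL15tg spleen were 1 without IL15tg spleen replicate 1 or 2, and 0 without its replicate 3, any 1 NKDxIL15tg spleen array or bone marrow replicate 2. The part of other cell types in the changes of the cell cycle genes, and of RNA length, was not tested.

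The other genes of the pathway were taken from lists, each gene by its brightest probe set with the adjusted p over all probe sets. Beside each list count stand the shares of all genes, 7.65% higher and 4.87% lower in NKDxIL15tg spleen against IL15tg spleen. In NKDxIL15tg bone marrow against IL15tg spleen they were 11.5% and 8.7%. Of 22 tested E2F target genes of S phase, which the pathway switches on when Rb1 protein is phosphorylated, 12 were higher and 0 lower in NKDxIL15tg spleen against IL15tg spleen, with a median log2 change of 0.53 beside 0.02 for all genes. In NKDxIL15tg bone marrow 16 were higher and 1 lower, with a median of 0.87 beside 0.12. Leading members were the replication licensing gene Cdc6, at 1.28 ± 0.21 in NKDxIL15tg spleen (adjusted p = 0.00515) and 1.78 ± 0.21 in bone marrow (adjusted p = 0.000694), and the ribonucleotide reductase gene Rrm2, at 1.18 ± 0.22 (adjusted p = 0.0094) and 1.63 ± 0.22 (adjusted p = 0.00135). Cdc6 read 199, 210 and 171 in NKDxIL15tg bone marrow, 103, 169 and 146 in NKDxIL15tg spleen, and 59.5, 44.0 and 67.1 in IL15tg spleen, without overlap of either NKDxIL15tg group with IL15tg spleen. The chromatin factor Uhrf1 and the helicase subunit Mcm3 were at 1.13 and 0.83 in spleen (adjusted p = 0.0121 and 0.0137), and Tk1, thymidine kinase, was at 1.60 in bone marrow (adjusted p = 0.0143). The 1 lower gene, Cdc45, was at -0.99 (adjusted p = 0.00436) by its brightest probe set and at 1.31 (adjusted p = 0.00217) by its other one, so its direction is unsettled. The count of 12 was 5 without IL15tg spleen replicate 1 or 2, 6 on leaving out replicate 2 of NKDxIL15tg spleen, and 14 on leaving out bone marrow replicate 3, and that of 16 ranged between 12 and 18 when 1 array was left out.

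**Figure D4:**
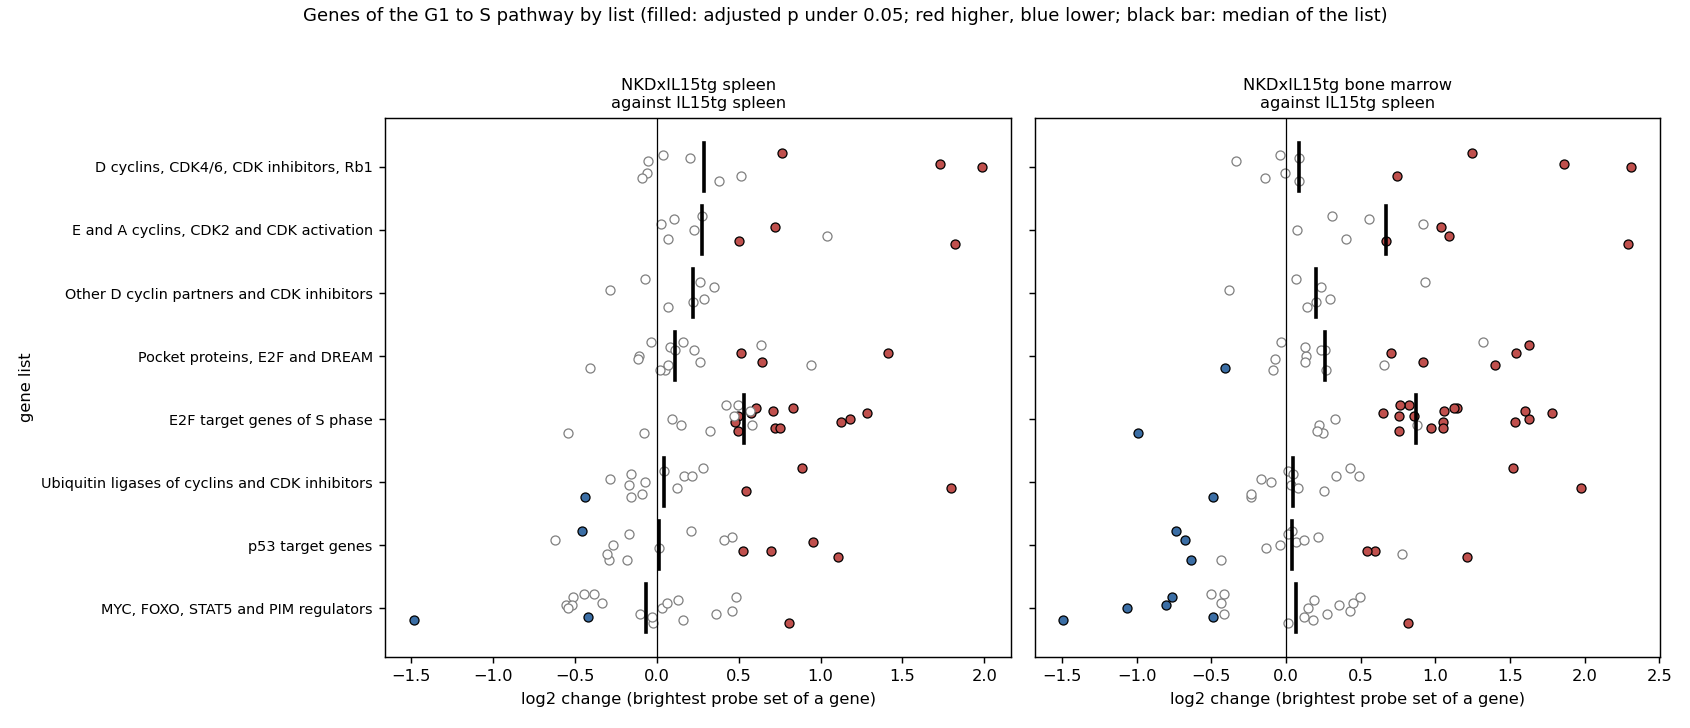
Log2 change of each tested gene (brightest probe set) in the 10 genes and in 7 lists of the G1 to S pathway, in NKDxIL15tg spleen against IL15tg spleen (left) and NKDxIL15tg bone marrow against IL15tg spleen (right); filled points have an adjusted p under 0.05 and black bars are list medians. The E2F target genes lie mostly to the right of 0, with medians of 0.53 and 0.87. The lists of ubiquitin ligases, of p53 and its target genes, and of MYC, FOXO, STAT5 and PIM regulators have medians between -0.07 and 0.07.

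Of 9 genes of the E and A cyclins, CDK2 and its activators, 3 were higher in NKDxIL15tg spleen and 4 in bone marrow of these mice, and 0 were lower in either (medians 0.28 and 0.67). The shares of all genes called higher were 7.65% and 11.5%. Ccna2, the cyclin A2 gene of S phase and mitosis, read 1063, 1102 and 875 in NKDxIL15tg bone marrow, 527, 872 and 840 in NKDxIL15tg spleen, and 225, 162 and 240 in IL15tg spleen, with log2 changes of 2.29 ± 0.22 (adjusted p = 0.000246) and 1.82 ± 0.22 (adjusted p = 0.00115) in bone marrow and spleen. No array of either NKDxIL15tg group came near the IL15tg range. The phosphatase gene Cdc25a was at 0.72 in spleen (adjusted p = 0.0393) and Mnat1, a subunit of the CDK-activating kinase, at 0.50 (adjusted p = 0.0218). Ccne2, a cyclin E gene, was at 1.09 in bone marrow (adjusted p = 0.0456), a call lost in 11 of 16 alternatives, and at 1.04 in spleen (adjusted p = 0.0719, not called). None of 7 other D cyclin partners and CDK inhibitors was called by limma in either comparison (medians 0.22 and 0.20), with 1 and 0 of 7 at an unadjusted p under 0.05 in spleen and bone marrow.

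Of 17 tested pocket protein, E2F and DREAM complex genes, 3 were higher and 0 lower in NKDxIL15tg spleen, and 5 higher and 1 lower in NKDxIL15tg bone marrow (medians 0.11 and 0.26). Tfdp1, the dimer partner of the E2F factors, was at 1.41 ± 0.16 in spleen (adjusted p = 0.000633) and 1.54 ± 0.16 in bone marrow (adjusted p = 0.000297). E2f3 was at 0.64 ± 0.13 (adjusted p = 0.0115), though its second probe set had 0.14 (adjusted p = 0.720), and E2f6 at 0.52 (adjusted p = 0.0274). The repressors E2f8 and E2f7 were at 1.63 and 1.40 in bone marrow (adjusted p = 0.0111 and 0.0143). The 1 gene lower by its brightest probe set, Lin52 of the DREAM complex, was at -0.41 in bone marrow (adjusted p = 0.0455). It was not called without any 1 IL15tg spleen array, NKDxIL15tg spleen replicate 1, or any 1 bone marrow array. Among 15 genes listed for ubiquitin ligases of cyclins and CDK inhibitors, cofactors included, 3 were higher and 1 lower in spleen, and 2 higher and 1 lower in bone marrow (medians 0.05 and 0.05). The 3 in spleen were Cks1b, Cks2 and Cul4a, and the 2 in bone marrow Cks1b and Cks2, which are not ligases themselves. Cks2 was at 0.88 in spleen (adjusted p = 0.0167) and 1.52 in bone marrow (adjusted p = 0.000904), and Cul4a at 0.55 in spleen (adjusted p = 0.0205). The spleen calls of Cks2 and Cul4a were both lost without any 1 IL15tg spleen array or NKDxIL15tg spleen replicate 3. For all genes the shares were 7.65% higher and 4.87% lower in spleen, and 11.5% and 8.7% in bone marrow. Cks1b, the cofactor with which the SKP2 ligase recognises p27, was at 1.80 ± 0.16 in spleen (adjusted p = 0.000212) and 1.97 ± 0.16 in bone marrow (adjusted p = 0.000111), reading 1929, 1670 and 1677 in NKDxIL15tg bone marrow, 1267, 1749 and 1693 in NKDxIL15tg spleen, and 491, 372 and 489 in IL15tg spleen. Skp2 itself had 0.13 (adjusted p = 0.634) and 0.08 (adjusted p = 0.680). Rbx1, the RING subunit of cullin ligases, was lower at -0.44 in spleen (adjusted p = 0.0348), a call lost with the replicate block (adjusted p = 0.0586).

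Of 20 genes for MYC, FOXO, STAT5 and PIM regulators, 1 was higher and 2 lower in NKDxIL15tg spleen, and 1 higher and 5 lower in NKDxIL15tg bone marrow (medians -0.07 and 0.07). All genes together gave shares of 7.65% higher and 4.87% lower in spleen, and 11.5% and 8.7% in bone marrow. Myc read 206, 226 and 241 in NKDxIL15tg bone marrow, 178, 286 and 215 in NKDxIL15tg spleen, and 133, 130 and 118 in IL15tg spleen, with log2 changes of 0.81 ± 0.17 in spleen (adjusted p = 0.0144) and 0.82 ± 0.17 in bone marrow (adjusted p = 0.0095). The spleen call was lost without IL15tg spleen replicate 2 (adjusted p = 0.0514) or 3 (adjusted p = 0.0592). Mxd1, which competes with MYC for their shared partner MAX, was lower at -1.48 ± 0.16 (adjusted p = 0.000671) and -1.49 ± 0.16 (adjusted p = 0.000478). It read 332, 263 and 275 in NKDxIL15tg bone marrow, 362, 250 and 270 in NKDxIL15tg spleen, and 853, 867 and 722 in IL15tg spleen, but its other 2 probe sets, at -0.21 and -0.29 in spleen, were not called. Stat5a, which relays interleukin-15 signals, was lower at -0.42 in spleen (adjusted p = 0.0318), a call lost with the replicate block (adjusted p = 0.0505). Foxo1 had 0.36 (adjusted p = 0.495) and 0.28 (adjusted p = 0.505) in spleen and bone marrow. Among 15 tested genes of the list of the DNA damage factor p53 and its known targets, 4 were higher and 1 lower in spleen. In bone marrow 3 were higher and 3 lower (medians 0.01 and 0.04). In spleen Perp was at 1.10 and Gadd45a at 0.95 (adjusted p = 0.0131 and 0.0107). In bone marrow Perp was at 1.21 (adjusted p = 0.00612), and Zmat3, Btg2 and Sesn1 were at -0.74, -0.68 and -0.64 (adjusted p = 0.00432, 0.0312 and 0.0118). The Btg2 call was lost in 6 of 16 alternatives. None of the 105 tested genes of these 7 lists was called by limma in NKDxIL15tg bone marrow against NKDxIL15tg spleen, and 12 had an unadjusted p under 0.05. Genes of the lists without a probe set of their own in the annotation were not analysed here.

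Of the named list genes, Ccna2, Tfdp1, Cdc6, Rrm2, Cks1b and Mxd1 kept their spleen call when any 1 array was left out. Without IL15tg spleen replicate 1, the spleen calls of Cdc25a, E2f3, E2f6, Gadd45a, Mcm3, Mnat1, Rbx1 and Stat5a were lost (adjusted p = 0.0508 to 0.115). Without IL15tg spleen replicate 2 this was so of Cdc25a, E2f6, Mcm3, Mnat1, Perp, Rbx1, Stat5a and Uhrf1 (0.0549 to 0.130), and without replicate 3 of Cdc25a, E2f6, Mnat1, Rbx1 and Stat5a (0.0806 to 0.112). Leaving out NKDxIL15tg spleen replicate 1 ended the calls of Cdc25a, E2f6, Rbx1 and Stat5a (0.0705 to 0.116), replicate 2 those of Cdc25a, E2f6, Mcm3, Mnat1, Perp, Rbx1 and Stat5a (0.0539 to 0.112), and replicate 3 those of Cdc25a, E2f6 and Stat5a (0.0681 to 0.0876). Bone marrow replicate 1 decided Cdc25a (0.0527 without it). In bone marrow against IL15tg spleen, Tk1 lost its call without IL15tg spleen replicates 1 and 2 (0.0583 and 0.0534) and Sesn1 without replicate 1 (0.0548). The list counts also rested on single arrays. In spleen the higher E and A cyclin genes numbered 1 without any 1 IL15tg spleen array or NKDxIL15tg spleen replicate 2. The higher genes of the ubiquitin ligase list numbered 1 without any 1 IL15tg spleen array or NKDxIL15tg spleen replicate 3. Those of the pocket protein list numbered 1 without IL15tg spleen replicate 1 and 5 without bone marrow replicate 3. The higher genes of the p53 list in spleen numbered 1 without IL15tg spleen replicate 1 or 2 or NKDxIL15tg spleen replicate 2. They numbered 2 without replicate 3 of either spleen group. The 1 lower was lost without any 1 IL15tg spleen array, NKDxIL15tg spleen replicate 3 or bone marrow replicate 1. The lower MYC, FOXO, STAT5 and PIM regulators in spleen numbered 1 without any 1 of the 6 spleen arrays, and 4 and 5 without bone marrow replicates 2 and 3. In bone marrow against IL15tg spleen these regulators numbered 3 without IL15tg spleen replicate 1 or 2. There the lower genes of the p53 list numbered 1 without IL15tg spleen replicate 1, and the higher ones 1 without its replicate 2 or 3. The 1 lower ubiquitin ligase gene was lost without IL15tg spleen replicate 1 or 2 or bone marrow replicate 1.

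The genes whose log2 intensity ran most like that of a called gene over the 9 arrays were, for Cdkn2c, Ift52 (Pearson r 0.996), Tfdp1 (0.995) and Rps6 (0.991), and for Cdk6, Dixdc1 (0.996), Asphd2 (0.995) and Zc2hc1a (0.993). For Cdk4 they were Uqcc1 (0.991), Atp5g2 (0.989) and Stau1 (0.987), and for Cdkn1a, Scnm1 (0.986), Cuedc2 (0.980) and Neto2 (0.978). Without bone marrow replicate 3, r of the first gene named was 0.996 for Cdkn2c, 0.997 for Cdk6, 0.987 for Cdk4 and 0.972 for Cdkn1a. These genes then ranked 2, 1, 6 and 16, so other genes ran nearer to Cdkn2c, Cdk4 and Cdkn1a. For Cdkn1a, Cuedc2 and Neto2 fell to ranks 37 and 48. The arrays share 3 groups, so any gene with a step of like shape between IL15tg and NKDxIL15tg cells scores high, and the values describe the shape of the pattern.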

How the data were processed

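RNA of 9 samples was extracted with Trizol, and 150 ng of each was amplified from the 3' end in 2 cycles and labelled with biotin, per the labels' protocols. Each probe set has 1 linear intensity on each array as the authors deposited it. Probe summarisation and array scaling are not given in the sources used here. Intensities under a floor of 16 (4.36% of values) were set to 16 and taken to log2. Of the probe sets other than 64 controls, the 27022 whose mean log2 reached the 40th percentile (5.58, or 47.7 as intensity) entered the tests. A model of 3 group means over all 9 arrays was fitted with limma 3.58.1 (R 4.3.3), 2-sided, with Benjamini-Hochberg adjustment over all tested probe sets and a threshold of 0.05. The script was tested on simulated data. Suffixes _x_at, _s_at and _a_at mark probe sets that can read related or alternative transcripts. Gene names come from the platform annotation, and positions and promoters come from RefSeq on GRCm38.p6. The labels call the samples biological replicates. With 3 arrays a group, the median SE of a log2 change in spleen was 0.15, and 0.1 is the smallest exact permutation p.

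Deviations from the group means were correlated between same-numbered arrays of NKDxIL15tg bone marrow and spleen (r = 0.379, 0.258 and 0.228 for numbers 1, 2 and 3). Differently numbered arrays of these groups had r between -0.349 and -0.00691. This pairing rests on the correlations, since the labels give only the numbers. For NKDxIL15tg and IL15tg spleen the same-numbered r was 0.163, 0.156 and 0.123. Differently numbered arrays there ran between -0.319 and 0.155, so a pairing is not clear. For NKDxIL15tg bone marrow and IL15tg spleen r was 0.170, -0.0236 and 0.242, so the numbers do not pair them. At most 0.00887% of values were equal between any 2 arrays.

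All probe sets of the 10 genes are given. Of each pathway list, up to 4 called genes with the largest change in a comparison could be named, plus the regulators Myc, Foxo1 and Skp2 whether called or not. Trp53 was to be named in the same way, but its value is not given here. Ccne2 in spleen, Cdc45, Lin52, E2f5, Tfdp2, Rbbp4 and the cell type markers with single values were named after their values were seen. The members and lists were chosen with earlier results of these data known. Alternatives were quantile normalisation, a common 75th percentile, a floor of 64, no filter, only the 2 groups compared, array weights, the replicate number as a block, and leaving out each array.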

Additional observations from a re-analysis of the deposited data

How the results depend on the processing

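No value of the 10 genes that was called reversed its direction. Of 1152 values of their probe sets under the alternatives, 1117 stayed on the same side of the threshold, 15 lost and 20 gained a call, and 65 values without a call took another sign. Both tested Cdk6 probe sets, Cdkn2c and Cdk4 1422439_a_at were called in all 16 alternatives against IL15tg spleen in both comparisons. In NKDxIL15tg spleen against IL15tg spleen, Cdkn2c ranged between 1.81 and 2.10 and Cdk6 1435338_at between 1.61 and 1.83. The 6 probe sets of the 10 genes called there were between 4 and 10 when 1 array was left out, with 10 without bone marrow replicate 3, and 6 with the replicate block. The 3725 calls among all probe sets in that comparison became 5685 with array weights, 1809 to 5483 when 1 array was left out, and 3789 with the replicate block. In NKDxIL15tg bone marrow against NKDxIL15tg spleen the 14 calls became 4 with a floor of 64, 2 with no filter, 23 with the replicate block and 1 to 15 when 1 array was left out, with 0 of the 10 genes' probe sets in each. In NKDxIL15tg bone marrow against IL15tg spleen the 5764 calls ranged between 3089 and 6342 when 1 array was left out, and were 5957 with the replicate block, where the 7 probe sets of the 10 genes became 8. The replicate block changed no call of the 10 genes in NKDxIL15tg spleen against IL15tg spleen or in NKDxIL15tg bone marrow against NKDxIL15tg spleen. In NKDxIL15tg bone marrow against IL15tg spleen it added Cdkn1a 1421679_a_at (adjusted p = 0.0443). Other gains were Ccnd3 1438805_at there with quantile normalisation (adjusted p = 0.0217), a common 75th percentile (0.0213), array weights (0.00257) and without NKDxIL15tg spleen replicate 2 (0.0475), and in spleen with array weights (0.0301) and only the 2 groups compared (0.0370). Cdk4 1422440_at and Cdkn1a 1424638_at gained a spleen call with array weights (0.0202 and 0.0293) and with only the 2 groups compared (0.0126 and 0.0355). Of 816 values of named list genes, 103 lost and 0 gained a call, and none reversed; of 1224 list counts, 115 moved by over 1.5 times. The causes were not tested. Changes near the median SE of 0.15 are below what 3 arrays a group can show.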
